A study of Mus musculus with 18 samples.

Results

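A comparison of 4 arrays is described here, out of 18 in the series. It sets the ovary of an hCG-treated LHCTP transgenic CF-1 mouse at 5 months of age, which the labels also describe as a luteoma, against the cystic ovary of an untreated LHCTP transgenic CF-1 mouse at 2 months. The arrays were chosen by their titles alone. CF-1 is an outbred mouse stock, and hCG (human chorionic gonadotropin) is a hormone of pregnancy that binds the receptor for LH. Each condition has 1 array of chip type A and 1 of chip type B. The titles do not say whether both received the same RNA, nor how many animals or ovaries gave it. An ovary below means the sample of 1 condition. The other 14 arrays hold 7 further conditions on the same chip types. In CF-1 these are the wild-type ovary at 2 and at 5 months and the untreated transgenic ovary at 5 months, a granulosa cell tumor. In CF-1xC57BL/6 F1 hybrids they are the wild-type ovary at 2 and at 5 months, the cystic transgenic ovary at 2 months and the transgenic luteoma at 5 months. For the tumor array of chip type B the description gives 2 months, but title and source give 5 months and were followed. Both ovaries compared here carry the transgene, so the transgene itself is shared. They differ in treatment, age and described pathology together, and the parts of these 3 in any difference below cannot be told apart. No hCG-treated wild-type ovary and no untreated transgenic CF-1 luteoma was analysed here.

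The LHCTP transgene makes a long-lived form of luteinizing hormone (LH). It is driven in the pituitary by a gonadotropin alpha-subunit promoter, so the ovary answers to a circulating hormone and not to a transgene product of its own. In the normal ovary, granulosa cells of growing follicles make oestrogen, inhibin and anti-Müllerian hormone around an oocyte that secretes the zona pellucida. The LH surge ends that program: the follicle ruptures, its granulosa and theca cells become luteal cells, stop dividing and make progesterone from cholesterol. The mouse model is known for cystic ovaries early in life, and the study is known to have asked how ovulation-like doses of hCG bear on tumour formation in CF-1 mice.

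With 1 array per chip type on either side there was no replicate and therefore no test, no standard deviation and no p-value. Differences are given as sizes, and how far 2 ovaries of the same condition would differ is not known from these arrays. The values are intensities, scaled within a chip type so that every array had the same trimmed mean. Levels are printed as scaled units before a floor was applied, and differences as log2 of hCG over cystic after values had been raised to the floor. The floor was 183.8 units on chip A and 290.7 units on chip B. A probe set was assessed when at least 1 of the 2 ovaries reached the detection limit of 2 floors, and it was called when the ovaries differed at least 3-fold. A fold against an ovary under the floor was computed against the floor and is written as at least that size. Levels are compared only within a probe set, or as sums over the same probe sets of a list, in which bright members weigh most. In the compared arrays the trimmed mean before scaling was 1316.7 (cystic) and 1156 (treated) on chip A, and 542 and 673 on chip B. In these arrays 57.9% and 57.0% of probe sets on chip A and 28.8% and 29.2% on chip B reached the detection limit.

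Among the 15 largest gene differences on either side between the hCG-treated and the cystic ovary were lower zona pellucida, relaxin and anti-Müllerian hormone messages. On the higher side they included the MHC class II gene H2-Ea, the immunoglobulin genes Igha and Jchain, the calbindin S100g and the fatty acid carrier Fabp3. Of 6155 probe sets assessed, 113 (1.84%) stood 3-fold or more above the cystic level in the hCG-treated ovary and 100 (1.62%) 3-fold or more under it. The median difference over all of them was -0.04. Chip A held 67 of the higher and 59 of the lower calls, and chip B 46 and 41. By gene, with the probe set of the highest mean for each, 63 of 3802 genes (1.66%) were called higher and 56 (1.47%) lower. The median difference over these genes was -0.06, with 1751 higher and 2051 lower, and each gene list below is read against those counts. In 86 of the 113 higher and 75 of the 100 lower calls the dimmer ovary was under the detection limit, so most calls set a measured level against a dim one. The pair was not unusual in size: over all 36 pairs of the 9 conditions the share called ran from 1.14% to 9.78%, with 18 pairs above the 3.46% here, and the 6 pairs of wild-type ovaries ran from 1.14% to 4.22%.

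**Figure D1:**
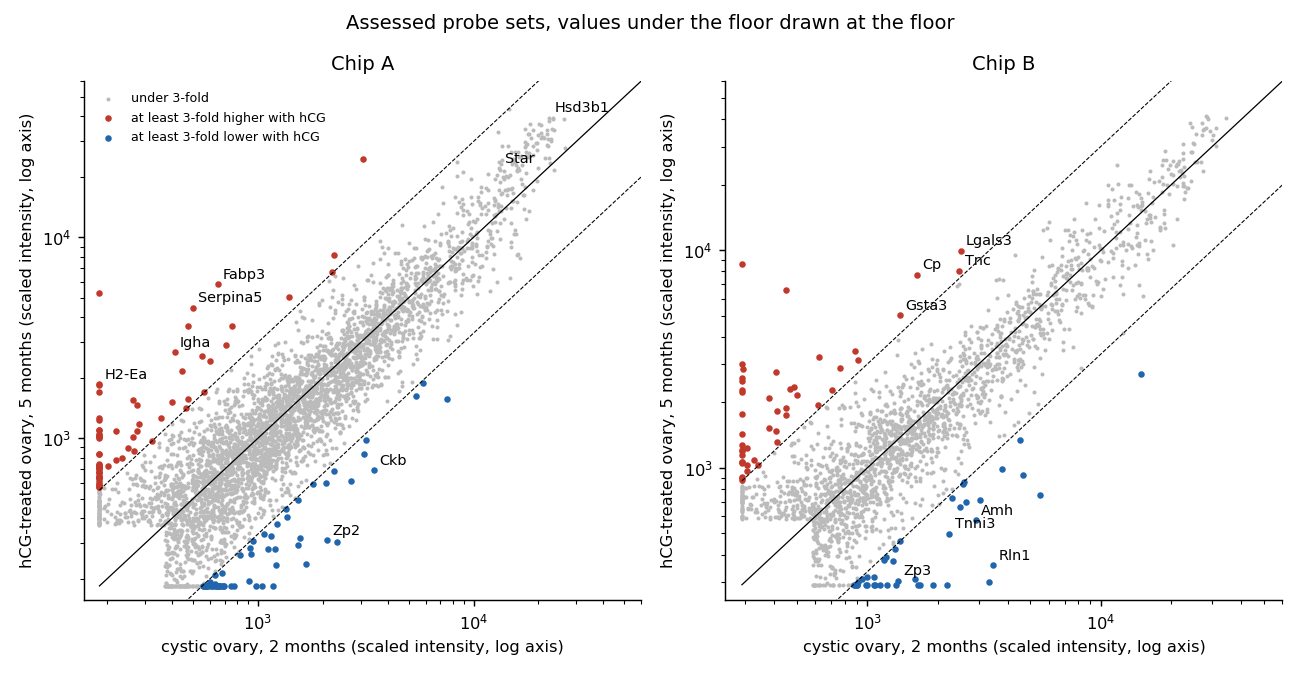
Scaled intensity of each assessed probe set in the cystic ovary (x, log axis) and the hCG-treated ovary (y, log axis), on chip A and chip B. The solid line marks equal levels and the dashed lines 3-fold, red and blue points are the 113 higher and 100 lower calls, and many called points lie on the floor of one axis.

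The bright end of the scale needs a word before the genes are read. The highest scaled value was 43630 units on the hCG-treated chip A array and 26526 units on the cystic one. The 205 probe sets with a mean level of at least 15000 units over the 2 ovaries had a median difference of 0.38, with 164 of them higher. After quantile normalization, which gives every array the same distribution, that median was 0.04. Differences of very bright genes are therefore given with their quantile-normalized value.

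Oocyte messages were lower in the hCG-treated ovary, led by the zona pellucida. Of 25 oocyte genes on the list 14 were on the chips and 8 were assessed, and all of these 8 were lower, with a median of -1.14; 3 of the 8 were called. Zp2, a structural protein of the zona to which sperm bind, was at 2085 units in the cystic and 309 units in the hCG-treated ovary, 6.74-fold lower. Zp3, its partner in the zona filament, was at 1360 and 304 units, 4.47-fold lower. Zp1, which cross-links the filaments, was at 646 units in the cystic ovary and below 0 in the hCG-treated one, at least 3.52-fold lower. Among the others, Bcl2l10 was at 2046 and 832 units and Gdf9, an oocyte growth factor, at 3622 and 1828 units, differences of -1.30 and -0.99 that were not called. Spin1 was nearly level at 3964 and 3707 units. The low zona level was not found in the hCG-treated ovary alone. In CF-1 wild-type ovaries Zp2 was at 2349 units at 2 months and 446.6 units at 5 months, and it was at 156 units in the tumour. In hybrids it stood at 2595 and 1977 units in the wild types, 2108 units in the cystic ovary and 669 units in the luteoma. So every 2-month ovary and the 5-month hybrid wild type had high Zp2, and every 5-month CF-1 ovary and the hybrid luteoma had low Zp2. The list median between 5 and 2 months was -1.09 in CF-1 wild types, with all 8 members lower, and -0.11 in hybrid wild types. In whole ovaries fewer cells of a type and less RNA per cell cannot be told apart, which holds for every list here. A promoter of the group is shown because the zona genes moved together, and E-boxes (letters CANNTG) in zona promoters are bound by the oocyte factor FIGLA. The 250 bases before the Zp3 start site (RefSeq, GRCm38.p6, chr5:135979855-135980104, plus strand) hold the E-box CACGTG, in capitals, from 181 bases before the start. Further CANNTG letters in the window, such as cagatg and caggtg, are not marked.
Zp3: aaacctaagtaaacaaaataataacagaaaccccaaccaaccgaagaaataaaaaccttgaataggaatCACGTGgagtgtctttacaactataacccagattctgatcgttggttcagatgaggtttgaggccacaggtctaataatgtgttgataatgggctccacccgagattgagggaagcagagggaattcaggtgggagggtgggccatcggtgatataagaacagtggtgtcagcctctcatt
The letters CACGTG, which read alike on both strands, are in 6.02% of all 32851 promoter windows of that length. Other E-boxes were not counted, and the match is a description and not a measured site. Of the 3 zona genes only Zp3 is printed.

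Granulosa cell genes split. Of 27 genes listed 17 were on the chips and 15 were assessed, 9 higher and 6 lower, with a median of 0.38 (0.17 after quantile normalization). Amh, anti-Müllerian hormone of small growing follicles, was at 2916 units in the cystic and 576 units in the hCG-treated ovary, 5.06-fold lower. Its 9 levels were highest in the 2 cystic ovaries, at 2916 units in CF-1 and 3913 units in the hybrid. The 4 wild types ran from 1157 to 1704 units, and the tumour, the hCG-treated ovary and the hybrid luteoma from 415 to 837 units. Esr2, the oestrogen receptor of granulosa cells, was at 1676 and 619 units, and the transcription factor Gata4 at 639 and 282 units, differences of -1.44 and -1.18 that were not called. Hsd17b1, which makes oestradiol from oestrone, differed by -0.82. In the other direction, Igf1, a growth factor of follicles, was called higher at 1477 against 408 units, 3.62-fold. Inhba, an activin and inhibin subunit, differed by 0.62, and Inha, the inhibin alpha subunit, by 0.65, or 0.16 after quantile normalization. Inhbb was low in both ovaries, at 1190 units cystic and 1331 units treated, against 4135 to 5987 units in the 4 wild types and 10279 units in the tumour.

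Genes of cell division were lower as a group in the hCG-treated ovary, each by a modest amount. Of 34 listed, 28 were on the chips and 24 were assessed; 23 were lower and 1 higher, with a median of -0.82 against -0.06 over all genes. Only Hmgb2, a chromatin protein of dividing cells, was called, at 1209 units cystic and 391.6 units treated. Mki67, the nuclear antigen used to mark cycling cells, was at 1931 and 827 units, a difference of -1.22. The replication helicase subunits Mcm5, Mcm2 and Mcm7 differed by -1.39, -1.25 and -1.21. Ccna2, the cyclin of S phase and mitosis, was at 1414 and 580 units. Cdk1, the kinase it activates, was nearly level at 4304 and 3481 units, and Ube2c was the exception, at 380 units cystic and 552 units treated. Mki67 was lower in the hCG-treated ovary than in any of the other 8, which ran from 1030 to 2395 units. Of those 8 the hybrid luteoma and the 5-month CF-1 wild type were the lowest, at 1030 and 1130 units. The list median was -0.76 between the CF-1 wild types at 5 and 2 months, with 22 of 26 lower, -0.76 between the hybrid luteoma and the hybrid cystic ovary, with 22 of 26 lower, and -0.08 between the hybrid wild types. Between the tumour and the cystic ovary, a comparison that uses the same cystic arrays, it was -0.23.

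The enzymes of steroid synthesis were bright in both ovaries, and none was called. Of 19 listed, 12 were on the chips and 9 were assessed, 6 higher and 3 lower, with a median of 0.71 that became 0.10 after quantile normalization. Star, which carries cholesterol into the mitochondrion, was at 13159 units cystic and 22157 units treated, a difference of 0.75, or 0.35 after quantile normalization. Cyp11a1, which cleaves the cholesterol side chain, was at 19877 and 32422 units, a difference of 0.71, or 0.10. Hsd3b1, which makes progesterone, was at 22428 and 39329 units, a difference of 0.81, or 0.22. Fdx1, the electron donor of Cyp11a1, was at 22511 and 38119 units, a difference of 0.76, or 0.09. In these data the size of the higher steroidogenic level thus depends on how the bright end is scaled. Cyp17a1, the androgen-forming enzyme of theca and interstitial cells, was at 5915 and 8023 units, a difference of 0.44 that hardly moved, at 0.43. The tumour was the low ovary for this group, with Star at 188 units and Hsd3b1 at 1150 units. Hsd3b1 was also low in 3 hybrid ovaries, the exception being the 2-month wild type at 16166 units.

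The enzymes that make cholesterol went the other way. All 8 assessed members of the list (8 on the chips, 23 listed) were lower in the hCG-treated ovary, with a median of -0.85 that was -0.82 after quantile normalization. Sqle, squalene epoxidase, was at 4556 units cystic and 2148 units treated, a difference of -1.08. Idi1, isopentenyl diphosphate isomerase, was at 6449 and 3622 units, and Lss, lanosterol synthase, at 3546 and 1835 units. Mvd differed by -1.24, and Hmgcs1, at the entry of the pathway, was level at 14163 and 14048 units. None passed 3-fold. For Sqle and Idi1 the treated level was near those of the CF-1 wild types. Sqle was at 2661 and 1765 units there at 2 and 5 months, and Idi1 at 3361 and 2024 units. This did not hold for Dhcr7, at 1083 units treated against 1806 and 4468 units in these wild types. Between the tumour and the same cystic arrays the list median was -2.43, with all 8 lower. The hybrid pair differed, with a list median of 0.18 between the luteoma and the cystic ovary and Sqle at 4555 and 3535 units. Genes of cholesterol uptake and handling had a median of 0.12 over 9 of 10 on the chips. Among them Scarb1, the receptor that takes up cholesterol from high-density lipoprotein, was at 18022 and 13474 units, a difference of -0.42, or -0.73 after quantile normalization.

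The label luteoma was read against a list of luteal genes. Of 21 luteal and LH-response genes 14 were on the chips and 10 were assessed, 5 higher and 5 lower, with a median of -0.13 and none called. Ptgfr, through which prostaglandin F ends the life of a corpus luteum, was at 12511 units cystic and 15676 units treated, and at 217 units in the tumour. Timp1, a protease inhibitor made under LH, was at 18704 and 14629 units, a difference of -0.35, or -0.34 after quantile normalization. Nr5a2, a nuclear receptor of granulosa and luteal cells, was at 12917 units cystic and 6019 units treated, the lowest of the 9 ovaries. Genes of the ovulatory response, assessed for 8 of 21 on the chips, had a median of -0.40. Its called member was Vcan, versican of the expanding cumulus matrix, at 2702 units cystic and 611 units treated, 4.42-fold lower. The 5-month CF-1 wild type had 592 units and the tumour 3356 units.

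Relaxin, Cited1 and Wnt4 were also called lower in the treated ovary. Rln1, the hormone relaxin of the corpus luteum of pregnancy, was at 3450 units in the CF-1 cystic ovary and 359 units in the hCG-treated one, 9.62-fold lower. It stood at 14761 and 16825 units in the hybrid cystic ovary and luteoma, and at no more than 473 units in the 4 wild types and the tumour. Rln1 was therefore high in 3 of the 4 untreated transgenic ovaries and low in the treated one. Wnt4, a signalling protein of ovarian and decidual differentiation, was at 2318 units cystic and 726 units treated, 3.19-fold lower. It was at 1977 and 3574 units in the hybrid cystic ovary and luteoma and from 311 to 745 units in the wild types. Cited1, a transcriptional co-regulator, was at 2334 units cystic and 303 units treated, 7.71-fold lower, with 804 and 951 units in the CF-1 wild types. It was high in the hybrid cystic ovary and luteoma too, at 3818 and 2437 units, but the 2-month hybrid wild type was as high, at 2601 units, and the tumour was below 0. Ptgds, prostaglandin D synthase, was not called: it was at 1317 and 1653 units in the CF-1 pair, and at 4392 and 14122 units in the hybrid cystic ovary and luteoma.

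**Figure D2:**
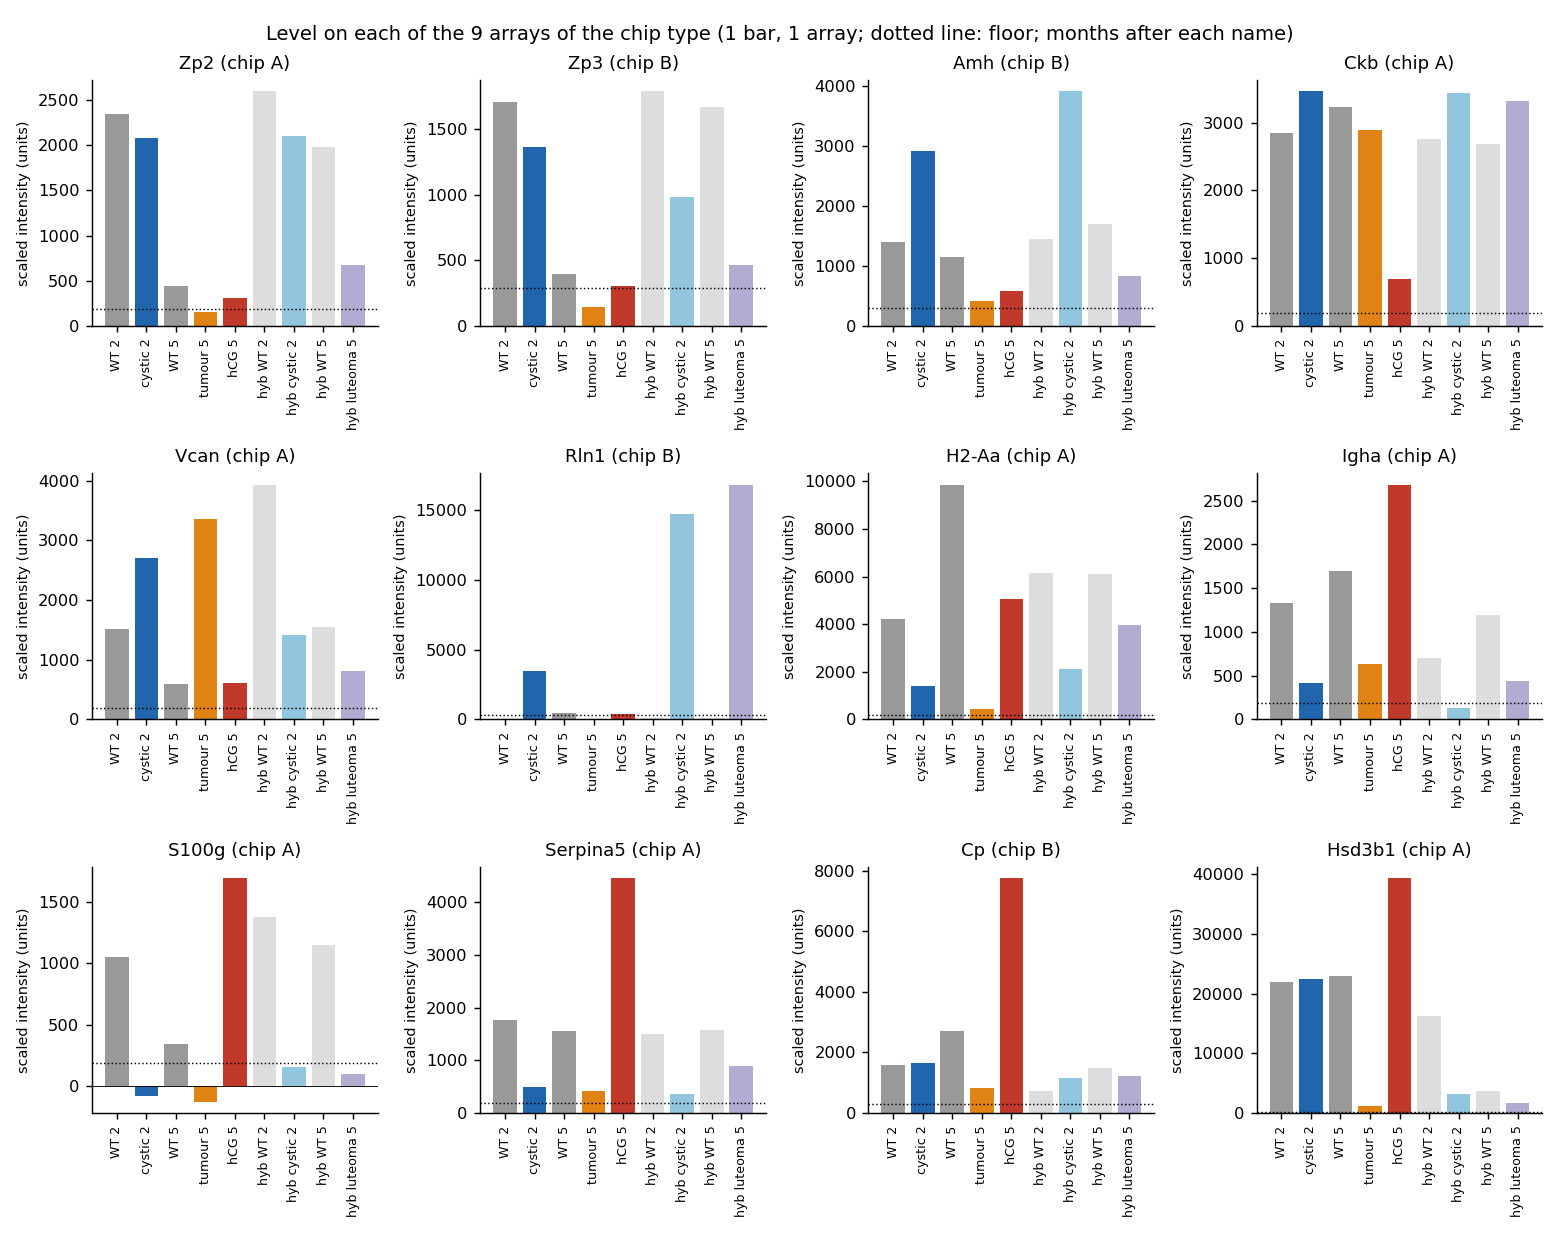
Scaled intensity (y, linear axis from 0 or below) of 12 genes on the 9 arrays of the chip type that carries them, 1 bar per array, with the floor dotted. Ckb is low in the hCG-treated ovary alone, at 693 units, Cp is high there alone, at 7745 units, while Zp2 and Zp3 are low in every 5-month CF-1 ovary and in the hybrid luteoma.

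Structural matrix genes were mostly lower in the hCG-treated ovary. Of 41 collagens and matrix proteins 37 were on the chips and 34 were assessed, 6 higher and 28 lower, with a median of -0.45. Lox, the enzyme that cross-links collagen and elastin, was at 775 units cystic and 117 units treated, at least 4.22-fold lower. The fibrillar collagen Col1a2 was not called on its brightest probe set, at -1.46, but 2 further probe sets on chip B were called lower, at -1.74 and -1.59. Of these 3 only the one at -1.59 is not marked by the maker as shared by a gene family. Col1a1 differed by -0.83 on such a shared probe set and was not called. The basement membrane laminin Lamc1 was at 1481 and 669.7 units. Against this, Tnc, tenascin C of remodelled matrix, was at 2476 units cystic and 8058 units treated, 3.25-fold higher and the highest of the 9 ovaries. Lum, the collagen-binding proteoglycan lumican, was at 3823 and 8331 units, a difference of 1.12. Genes of matrix proteases and their inhibitors had a median of 0.40, or 0.20 after quantile normalization, over 20 of 24 on the chips, 15 of them higher and none called. Outside that list 2 metalloproteinases were called. Mmp12, the macrophage elastase, was at 399 units cystic and 1507 units treated, with 1657 units in the 5-month CF-1 wild type and 1044 units in the hybrid luteoma. Mmp7, matrilysin of epithelia, was at 638 units in the treated ovary and under the detection limit in the other 8.

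MHC class II messages, the molecules with which macrophages, dendritic cells and B cells present antigen, were low in the cystic ovary and higher in the hCG-treated one. H2-Ea was at 8.53 units in the cystic and 1850 units in the hCG-treated ovary, at least 10.1-fold higher, and the other 7 ovaries ran from 70.7 to 575 units. H2-Aa was at 1386 and 5052 units on chip A, 3.65-fold higher, and at 1194 and 2753 units on chip B. H2-Ab1 was at 135 and 1058 units, at least 3.64-fold higher. Cd74, the invariant chain that escorts class II, was at 2471 and 7023 units, a difference of 1.51, and H2-Eb1 at 1119 and 2126 units, a difference of 0.93. For H2-Aa the treated level lay near the 2-month CF-1 wild type, at 4214 units, below the 5-month one, at 9850 units, and above the tumour, at 422 units. The other members of the macrophage and antigen presentation list were not called: Cd68 was at 1197 and 1132 units, the complement subunit C1qa at 1314 and 1521 units, and Ptprc, the leukocyte antigen CD45, at 3755 and 2529 units. Outside the list, Mmp12, Acp5 and Lgals3, which macrophages also express, were called higher, at 1.92, 2.54 and 1.99. They were picked from the called genes after their values were seen. The list as a whole, with 18 of 26 on the chips assessed, had a median of 0.44, with 14 higher and 4 lower. Its summed level was 42452 units in the cystic and 62502 units in the treated ovary. Over the 4 wild types the sum ran from 38746 to 109831 units, the highest being the 5-month CF-1 wild type. Between the CF-1 wild types at 5 and 2 months the list median was 1.32, with 20 of 20 higher. The 250 bases before 2 class II start sites are shown because these genes moved together, with a Y box of class II promoters, CTGATTGG, in capitals. The H2-Aa window is chr17:34287824-34288073 on the minus strand, with the box from 51 bases before the start, and the H2-Eb1 window chr17:34305617-34305866 on the plus strand, with the box from 62 bases before it (RefSeq, GRCm38.p6).
H2-Aa: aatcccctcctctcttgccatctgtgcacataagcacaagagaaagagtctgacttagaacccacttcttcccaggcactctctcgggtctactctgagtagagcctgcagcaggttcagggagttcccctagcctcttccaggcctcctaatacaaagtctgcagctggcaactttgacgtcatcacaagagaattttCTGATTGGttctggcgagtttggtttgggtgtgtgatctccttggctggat
H2-Eb1: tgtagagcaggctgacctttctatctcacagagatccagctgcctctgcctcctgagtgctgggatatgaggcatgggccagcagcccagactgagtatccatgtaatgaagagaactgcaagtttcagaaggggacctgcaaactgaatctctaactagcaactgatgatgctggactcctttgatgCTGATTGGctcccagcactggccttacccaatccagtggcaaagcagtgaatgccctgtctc
These letters, on either strand, are in 3.83% of the 32851 windows.

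Plasma cell messages went with them. Igha, the heavy chain of immunoglobulin A, was at 410.2 units cystic and 2679 units treated, 6.53-fold higher, and Jchain, which joins secreted immunoglobulin A and M, at 275 and 1469 units, 5.35-fold higher. Both were highest of the 9 ovaries in the treated one. Ighm, the heavy chain of immunoglobulin M, varied between probe sets: it differed by 1.22 on chip B, and by 0.12 and 1.68 on chip A, where only the last was called. B cell surface genes did not share this: Ms4a1, the antigen CD20, was at 3679 and 3462 units and Cd79b at 491 and 252 units. The T cell gene Cd3e was at 679.8 and 866 units. The lymphocyte list, with 8 of 21 on the chips assessed, had a median of 0.63, 6 higher and 2 lower. Its summed level was 7190 units cystic and 11845 units treated, with 7720 to 10006 units over the wild types. Cd28, a co-stimulatory receptor of T cells, was at 713 units in the treated ovary and at most 206 units in the other 8. Lilrb4a, an inhibitory receptor of myeloid cells, was at 669 units against at most 289.8 units elsewhere.

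Genes of oviduct and uterine epithelium, which can adhere to a dissected ovary, were lower in the cystic than in the treated ovary. S100g, the vitamin D- and oestrogen-dependent calbindin of uterus and oviduct, was below 0 in the cystic and at 1699 units in the hCG-treated ovary, at least 9.25-fold higher. The 4 wild types had 344 to 1381 units, and the tumour and both hybrid transgenic ovaries were under the floor. Of 26 epithelial genes 22 were on the chips and 14 were assessed, 11 higher and 3 lower, with a median of 0.56 and 1 called. Ovgp1, the oviductal glycoprotein, was at 10829 and 16721 units, Ltf, lactoferrin, at 775 and 1674 units, and Plet1 at 1613 and 2962 units. The epithelial keratins Krt8 and Krt18 were at 1174 and 1663 units and at 1149.8 and 1448 units. The summed level of the 14 genes was 24454 units in the cystic and 36673 units in the treated ovary, 31852 to 47361 units in the 4 wild types and 6056 units in the tumour. Ovgp1 alone made up a large part of the cystic and treated sums. Prap1, a secreted protein of uterine and gut epithelium, was at 1098 units in the treated ovary, 1916 units in the 2-month CF-1 wild type and below 0 in the other 7. The part of epithelium of the tract in the calls was not tested.

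Several of the largest higher calls fall outside the lists. Fabp3, a cytosolic fatty acid carrier, was at 650.3 units cystic and 5836 units treated, 8.98-fold higher. The cystic ovary was the low one here, since the other 7 ranged from 2081 to 6735 units. Acp5, the tartrate-resistant acid phosphatase of macrophages and osteoclasts, had the same form at 264 and 1542 units, with 420.1 to 1319 units elsewhere. Serpina5, protein C inhibitor, was at 499.3 and 4454 units, 8.92-fold higher, with the 2-month CF-1 wild type next at 1772 units. Cp, ceruloplasmin, the copper-carrying ferroxidase of plasma, was at 1635 and 7745 units, 4.74-fold higher, with 2704 units as the next level. Tspan8, a tetraspanin of secretory epithelia, was at 756 and 3612 units, 4.78-fold higher. Rgl1, an exchange factor for the GTPase Ral, was at 475 and 3611 units, 7.61-fold higher. Sult2b1, which sulphates cholesterol and other hydroxysteroids, was under the floor in the cystic ovary and at 1014 units in the treated one. Purb, a single-stranded DNA-binding repressor, was at 443 and 2154 units, but the 2-month CF-1 wild type was as low at 328 units. Wfdc21 was at 219 and 1087 units. Samd10 had, with H2-Ea, the largest fold among the brightest probe sets of each gene, at least 10.1, yet its levels did not follow any grouping. They were from 1024 to 2654 units in 5 ovaries and below 0 in the other 4, among them 2 wild types, the tumour and the cystic ovary. A probe set of Kmt5c, a histone methyltransferase, that has the lower mean over the 9 ovaries went further and was picked out after its values were seen: it was below 0 in the cystic and at 5275 units in the treated ovary, a difference of 4.84 against the floor. The probe set that stands for Kmt5c here was at 923 and 1261 units, a difference of 0.45.

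Of the largest lower calls, a set was low in the treated ovary alone. Ckb, the brain creatine kinase that also serves oestrogen-responsive tissues, was at 3458 units cystic and 693 units treated on chip A and at 3045 and 716 units on chip B, 4.99-fold lower on chip A. The other 7 ovaries lay between 2679.8 and 3439 units on chip A, so 8 of 9 ovaries were nearly alike. Eif5a, a translation factor, was at 2498 and 659 units, with 2319 to 3837 units elsewhere. Ube2s, a ubiquitin-conjugating enzyme of mitotic exit, was at 2242 and 685 units, with 2198 to 4992 units elsewhere. Tnni3, cardiac troponin I, was at 2246 and 498 units, with 1728 to 5983 units elsewhere. H19, the imprinted non-coding RNA, was at 1214 units in the cystic ovary and under the floor in the treated one, with 915 to 1476 units elsewhere. Cmtm7, Mcrs1, Trip12 and Rad50 had the same form, with differences of -2.39, -1.61, -1.63 and -1.75. Arf5, a small GTPase of vesicle traffic, was at 1575 and 320 units. The probe sets of Ckb and H19 are marked as shared by a gene family. Others were highest in the cystic ovary. Miga2, of mitochondrial fusion, was at 1677 units there and at most 1171 units elsewhere. It was also lowest in the treated ovary, at 238 units, which was 0.95 (log2) under the next. Cry1, a repressor of the circadian clock, was at 904 and 194 units, with the 2-month hybrid wild type next to the cystic ovary at 779 units. Nnat, the imprinted neuronatin, was instead lowest in the treated ovary, below 0 there against 1173 units cystic, 246 units in the hybrid luteoma and 4180.2 units in the tumour. Hps4 was at 1048 units cystic and 18.9 units treated, the lowest of the 9, but the hybrid cystic ovary was also low at 201 units. Fgf15 was at 1209 and 233 units, and neither ovary stood apart: the 5-month CF-1 wild type was at 1187 units and the 5-month hybrid wild type below 0.

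Enzymes of detoxification leaned higher. Of 43 listed, 35 were on the chips and 26 were assessed, 18 higher and 8 lower, with a median of 0.35, or 0.18 after quantile normalization. Gsta3, a glutathione transferase known for steroid isomerase activity, was at 1377 units cystic and 5043 units treated, 3.66-fold higher. It was also high in the hybrid luteoma, at 6178 units, against 2200.4 units in the hybrid cystic ovary and 616 to 2052 units in wild types. Gsta4 was at 2483 and 6238 units and Aldh1a1, a retinaldehyde dehydrogenase, at 14475 and 28349 units, differences of 1.33 and 0.97 that were not called. After quantile normalization Aldh1a1 differed by 0.46. Gpx1, a glutathione peroxidase, was called lower at 995 and 315 units, and Cyp1b1 was at 10384 and 5203 units. Of immediate early and heat shock genes, which can respond to handling, 26 of 30 on the chips were assessed, with a median of 0.01, 14 higher and 12 lower. Jun, a subunit of the AP-1 factor, was at 498.5 and 2160 units, 4.33-fold higher, and Hspa1a, an inducible chaperone, at 124 and 576 units, at least 3.13-fold higher. Egr1 and Hsph1 differed by -0.60 and -1.45.

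The remaining lists held few calls. Mitochondrial respiratory chain genes had a median of 0.37 (0.22 after quantile normalization), 20 of 24 higher. Ribosomal protein genes, which are bright, had a median of 0.31 with 28 of 34 higher, but -0.06 with 15 of 34 higher after quantile normalization, so their direction rests on the scaling. TGF-beta family genes had a median of -0.20 and Wnt pathway genes 0.17. Endothelial genes had -0.17, with 11 of 14 lower, smooth muscle genes 0.12, erythroid genes 0.05 and adipocyte genes -0.17. Granulocyte and mast cell genes had -1.05 over only 5 of 17 on the chips. Csrp1, a smooth muscle LIM protein, was called lower at 2075 and 599.8 units, and Fabp4, the fatty acid carrier of fat cells, higher at 176 and 569 units. Prostaglandin genes had -0.25, D cyclins and cell cycle inhibitors 0.12, theca and interstitial genes 0.05 over 4, adrenocortical genes 0.45 over 3 and mesothelial genes -0.28 over 3. The 4 pituitary gonadotropin genes on the chips, the hormone subunits among them, were under the detection limit in both ovaries.

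**Figure D3:**
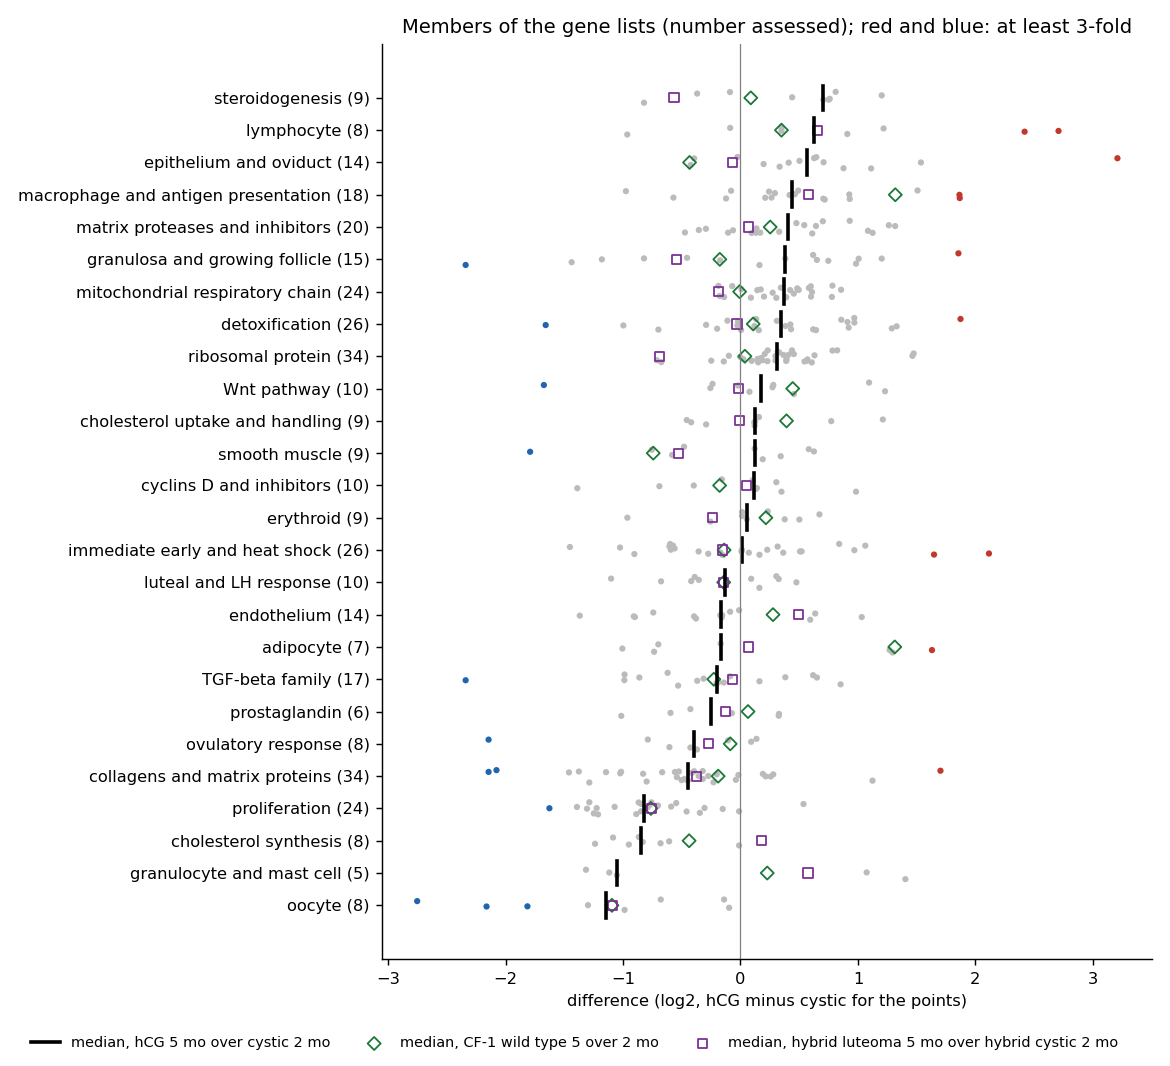
Differences (log2, hCG over cystic) of the assessed members of each list with at least 5 of them, 1 point per gene, red and blue where called, with the list median as a black bar. Open diamonds and squares give the medians between CF-1 wild types at 5 and 2 months and between the hybrid luteoma and hybrid cystic ovary: proliferation and oocyte medians lie close together in the 3 comparisons, while those of cholesterol synthesis and steroidogenesis lie apart. The steroidogenesis bar, at 0.71, depends on the scaling of bright genes: after quantile normalization it was 0.10, against 0.09 drawn for the CF-1 wild types.

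Set among all 9 ovaries, the hCG-treated ovary was the extreme in many calls. Calling on the treated and cystic arrays itself favours these 2 as extremes. Levels were ranked after being raised to the floor, so an ovary under it counted as lowest only if no other was. The cystic ovary was under the floor in 55 of the 113 higher calls, and the treated one in 41 of the 100 lower calls. Counts of lowest ovaries therefore cannot be set against counts of highest ones. Of the 113 higher probe sets the treated ovary was the highest of the 9 in 74, at least 2-fold above the next in 21. The cystic ovary was the lowest in 25, by at least 2-fold in 4. Of the 100 lower probe sets the treated ovary was the lowest in 52, at least 2-fold under the next in 21, and the cystic ovary was the highest in 43, by at least 2-fold in 4. In 25 of the higher and 23 of the lower calls neither held. By gene, the widest gaps over the next ovary in the treated one were those of Cd28, H2-Ea, Cp, Mmp7, Gjb6, Tspan8, Serpina5, Nab1, Lilrb4a and Kcnma1. Gjb6, a connexin, was at 679.8 units against at most 268 units, and Kcnma1, the large-conductance potassium channel, at 832 units against at most 389 units. The cystic ovary was the lowest for Kmt2a, at 279.5 units against 590.3 units or more, for Slc22a23, Ifnar2, Cstb and Cd52, and for Ap2s1, an adaptor subunit of endocytosis. It was the highest for Tnxb, tenascin X, for Orc2, Shmt2 and for Cyp2s1, at 3112 units against at most 2650.4 units.

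The hybrid pair, luteoma at 5 months against cystic ovary at 2 months, was untreated, is described with the same 2 pathologies and used none of the 4 arrays. There 109 of 6030 probe sets (1.81%) were called higher and 105 (1.74%) lower. The probe sets called the same way in both pairs numbered 20, which is 9.39% of the 213 called in CF-1 and 9.35% of the 214 called in the hybrid. A further 13 were called the opposite way, 6.10% and 6.07% of the lists. By gene 13 were shared in direction. Higher in both were Rgl1, AW112010, Rxrb, Mmp12, Lgals3 and Ap2s1. Lower in both were Amh, Zp2, Nnat, Lox, Prc1, Cyp2s1 and Cdv3. AW112010, an interferon-induced transcript, was at 276 and 1087 units in the CF-1 pair and at 58.6 and 841 units in the hybrid pair. Lgals3, galectin 3 of macrophages and epithelia, was at 2512 and 9948 units in CF-1 and 2376 and 7477 units in the hybrid. Rxrb, a retinoid X receptor, was at 305 and 1238 units, then 808 and 2778 units. Prc1, which bundles spindle microtubules in dividing cells, was at 924 and 264 units in CF-1 and 987 and 127 units in the hybrid. Cdv3 was at 635 and 187 units, then 787 and 175.0 units.

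**Figure D4:**
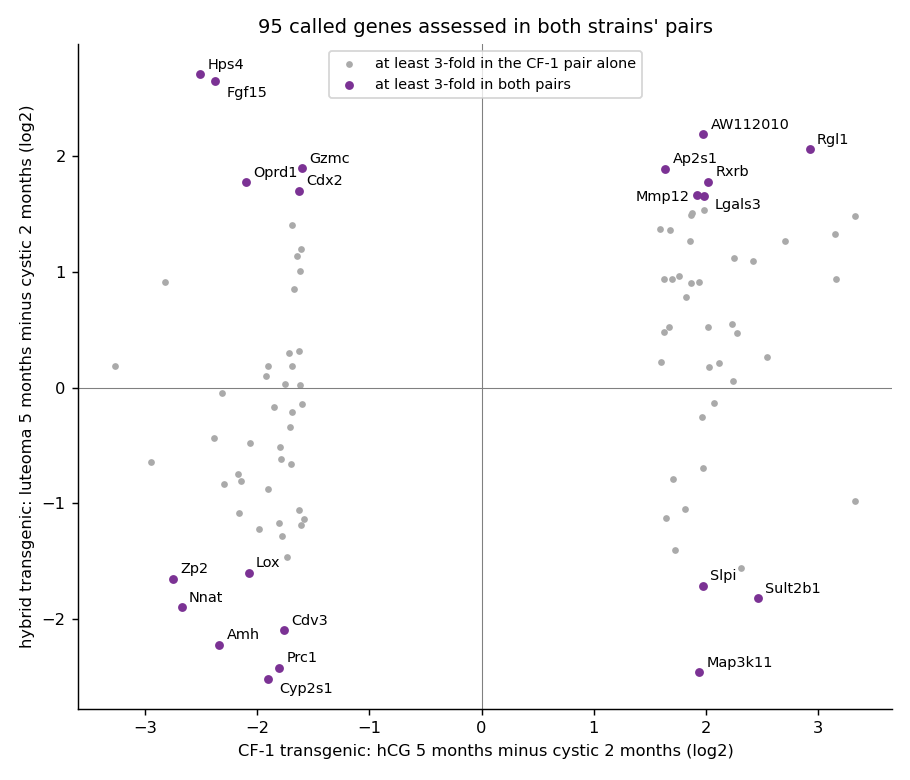
Difference between hCG-treated and cystic CF-1 ovary (x, log2) and between hybrid luteoma and hybrid cystic ovary (y, log2) for the 95 genes called in the CF-1 pair and assessed in both. Purple points, with names, are the 21 genes called in both pairs, 13 of them in the same and 8 in the opposite direction.

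The wild-type pairs set 5 against 2 months in untreated ovaries without the transgene, with 1 sample an age, so that age and the animal cannot be told apart. Between CF-1 wild types at 5 and 2 months 122 of 6046 probe sets (2.02%) were called higher and 72 (1.19%) lower. Of these 19 were called the same way as in the hCG-treated pair, 8.92% of that pair's list and 9.79% of the wild-type list, and 7 the opposite way. Between hybrid wild types 32 of 6006 (0.533%) were called higher and 46 (0.766%) lower, and 5 were called the same way, 2.35% and 6.41% of the lists, and 7 the opposite way, 3.29% and 8.97%. The 84 higher calls that were also assessed between the CF-1 wild types had a median of 0.59 there, and the 84 lower calls a median of 0.07. Named genes with the same call in the CF-1 wild types were Zp2 at -2.40, Zp3 at -2.10, Prc1 at -2.47, Mmp12 at 3.17, AW112010 at 3.04, Purb at 2.73, H2-Ab1 at 2.27, Fabp4 at 2.07, Cd52 at 1.95, Cyp2s1 at -1.76 and Gsta3 at 1.74. Others did not share the call there, such as Serpina5 at -0.19, Ckb at 0.18 and Amh at -0.27. S100g, at -1.61, was past 3-fold in the opposite direction there.

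Genes carried by both chip types are measured again in the same conditions, though the titles do not say whether both chips received the same RNA. Of 168 genes assessed on both chips 113 had the same sign, Pearson's r across genes was 0.56, and the median gap between the chips was 0.33. Genes are not independent replicates, so r is a description. Ckb, Tnxb and Lgals3 were called on both chips, 3 of the 8 genes called on either. Pim3 was just short on chip A, at 1.47, and called on chip B, at 1.78, and H2-Aa was called on chip A alone, at 1.87, with 1.21 on chip B. Maf, Cd151 and Bhlhe40 disagreed. Maf was at -0.41 on chip A and 2.16 on chip B, Cd151 at -0.37 and -2.86, and Bhlhe40 at 2.75 and 0.66, so no value is given for these 3 as genes. Of 11 called genes with a further assessed probe set on any chip, 10 had every such probe set in the same direction, and in 4 another was called too. The annotation gave no single gene for 67 of the 213 called probe sets, 35 higher and 32 lower. The brightest of these was at 3076 units cystic and 24438 units treated.

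**Figure D5:**
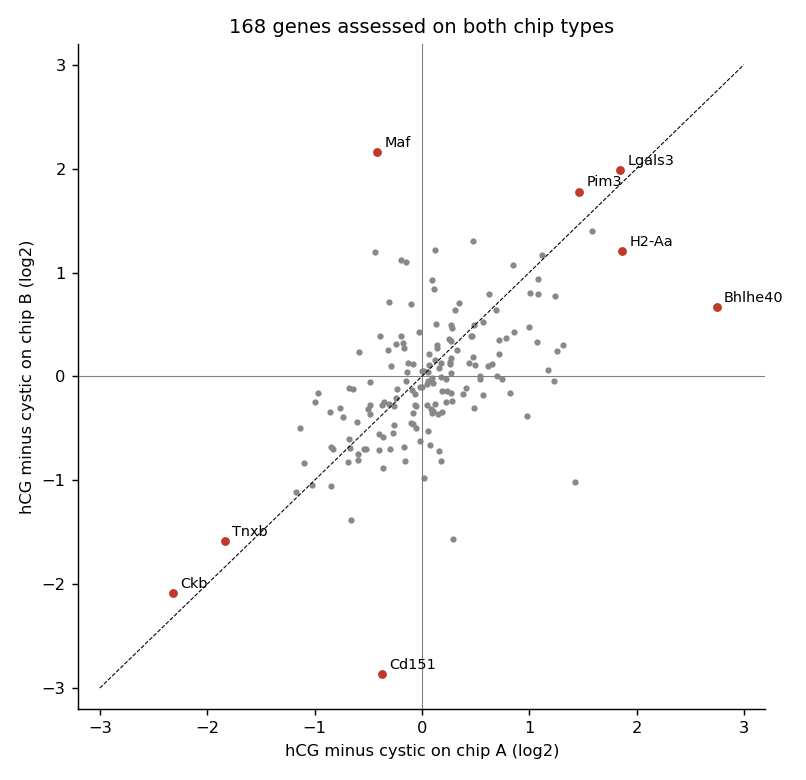
Difference between hCG-treated and cystic ovary (log2) on chip A (x) and chip B (y) for the 168 genes assessed on both, with the 8 called on either in red and the dashed line marking equal differences. Ckb, Tnxb and Lgals3 lie near that line, and Maf, Cd151 and Bhlhe40 far from it.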

How the data were processed

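Whole mouse ovaries were profiled on a pair of oligonucleotide chips. The deposited values are linear intensities, some below 0. How the authors computed them is not given here, since no label or header records the software. Affymetrix control probe sets and the 21 named ones that both chips carry were left out, 76 on each chip. Each array was scaled to the trimmed mean of its chip type (2nd to 98th percentile). The floor takes, for every array, its absolute 5th percentile or its 25th, whichever is larger, and then the median over arrays. Log2 differences were computed from these deposited intensities. The platform annotation names 1 gene for 5560 probe sets on A and 2001 on B, several for 197 and 27, and none for 827 and 4567. Symbols were brought up to date by Entrez number (GRCm38.p6, 7544 of 7561 entries matched). Named genes were the 15 largest called differences on either side, called and defining list members, the 10 widest gaps on either side for the treated and the cystic ovary, genes called alike in the hybrid pair and genes called on both chips. The rule of size was tried on simulated data, with known folds planted only in probe sets well above the detection limit. The simulation therefore says little about calls that rest on dim probe sets. Members and lists were chosen with earlier results of these data known. No label mentions replicate animals or pooling. Python 3.11.15, pandas 2.3.3 and numpy 2.4.6 were used.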

Additional observations from a re-analysis of the deposited data

Results flagged for a closer look

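In 8 genes called between the hCG-treated and the cystic CF-1 ovary, the hybrid luteoma and the hybrid cystic ovary were called the opposite way. Each rests on 1 array a side, and the difference between the strains was not tested. Hps4, lower in CF-1, differed by 2.71 (log2) in the hybrid pair, Fgf15 by at least 2.65, Gzmc by 1.90, Oprd1 by 1.77 and Cdx2 by at least 1.70. The hybrid cystic ovary was under the floor for Fgf15, at 114 units, and for Cdx2, at 6.55 units. It was little above the floor for Hps4, at 201 units, and Gzmc, at 192 units. Map3k11, higher in CF-1, differed by -2.46 in the hybrid pair, Sult2b1 by -1.82 and Slpi, a protease inhibitor of epithelia, by -1.71. Map3k11, Oprd1, Gzmc, Cdx2 and Slpi fall outside the rule for named genes and were chosen after their values were seen.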

How the results depend on the processing

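The counts depend on where the thresholds lie. Probe sets higher and lower in the hCG-treated ovary (113 and 100) numbered 447 and 450 at 2-fold, 32 and 19 at 5-fold, 191 and 151 with 0.5 of the floor or with 20 units, 54 and 41 with double the floor, 67 and 59 on chip A alone and 46 and 41 on chip B alone. With a detection limit of 4 floors 62 were lower. The hybrid transgenic pair (214) had 888, 29, 386, 82, 116 and 98 in that order, and 339 without scaling. The CF-1 wild types (194) had 845, 22, 310, 72, 128 and 66, and 295 without scaling. The hybrid wild types (78) had 411, 14, 151 and 26, then 22 on chip B, and 147 without scaling. The 74 higher calls with the treated ovary highest of 9 became 259, 24, 118, 37, 44 and 30, and the 52 with it lowest 227, 8, 79 (85 at 20 units), 23, 29 and 23. Genes called on both chips (3) numbered 9 at 2-fold, 0 at 5-fold, and 1 with double the floor or with a limit of 4 floors. A floor under the detection limit by more than 3-fold never binds in a call, so both low floors gave the same numbers of called probe sets. Of list medians, steroidogenesis went from 0.71 to 0.10 under quantile normalization, and ribosomal proteins from 0.31 to -0.061. Without a filter the oocyte median was -0.41 and the lymphocyte median 0.00, since genes at the floor in both ovaries then count as 0. Of 29 lists 9 had a median of the opposite sign under at least 1 alternative: ribosomal proteins and 8 whose median was at most 0.20 in size. These 8 were cholesterol uptake, theca, D cyclins, smooth muscle and Wnt genes without scaling, immediate early genes without scaling (-0.03), after quantile normalization (-0.03) and on chip A (-0.16), luteal genes when scaled on detected probe sets (0.18), and TGF-beta genes on chip B (0.04). With a limit of 4 floors theca and smooth muscle genes turned too, to -0.33 and -0.48. Without scaling the median of all genes was -0.16, against -0.06. The 79 named genes kept their direction: of 767 recomputed gene differences 0 reversed and 66 moved by over 1.5-fold, 32 larger with the low floors and 34 smaller with double the floor. Most of these genes were named for large differences on the same arrays, and changing the floor cannot turn a sign. The absence of reversals was therefore largely fixed in advance and is no support for the directions. The cause of the other shifts was not tested. No paired analysis was possible because each condition had 1 array per chip type and no result comes from a test.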
